A study of Mus musculus with 10 samples.

Results

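Homeobox genes encode transcription factors that bind DNA through the homeodomain, and POU factors join a homeodomain to a second DNA-binding domain, the POU-specific domain. These proteins set the identity of body regions and tissues in the embryo: Hox factors along the body axis, Cdx factors in the gut, and Irx, Dlx, POU and sine oculis factors (Six2 to Six6 here) in sense organs, heart, skeleton, kidney and brain. Many act as pairs, with Hox proteins bound beside the TALE-class cofactors Pbx and Meis, and sine oculis proteins beside the Eya coactivators. Medullary thymic epithelial cells (mTECs) also transcribe many genes of other organs, so that T cells meet those products in the thymus, and several of the factors described here are best known from such organs.

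The members were all genes with a probe set of a single platform symbol in the Hox, Lhx, sine oculis, Irx, Dlx, Nkx, Meis, Pbx, Pitx, Prox, Cdx, Msx, Onecut or POU families, without Pou2f3. There were 102 such genes among 18194, covered by 167 probe sets, and each gene was represented by its probe set with the highest mean. Of these, 98 encode proteins and 4 (Hoxa11os, Hoxb5os, Hoxd3os1 and Lhx1os) are non-coding RNAs that share a symbol stem with a homeobox gene, so that the name of the group does not hold for them.

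RNA came from thymic cells of C57BL/6 mice aged 3 weeks that had been sorted as CD45-negative, EpCAM-positive and high for CD80. Wild-type (WT) cells gave 5 arrays, WT 1 to WT 5, and Fezf2 knockout (KO) cells gave 5 arrays, KO 6 to KO 10. Fezf2 is a zinc finger transcription factor; which part of it was deleted, and in which cells, is not stated in the labels. Nor do they say that each array stands for a mouse of its own, so that p-values cover the spread among arrays and that spread may be technical. The signal of Fezf2 had a mean of 5475 (SD 350.0, n = 5) on WT arrays and 15.0 (SD 2.77, n = 5) on KO arrays. The 15 listed markers of mature mTECs, Aire, Cd80 and Epcam among them, all passed the filter described next, and 4 of them were lower and 5 higher in KO cells, Fezf2 itself counted; Aire changed by -0.45 and Ciita by -0.81, Tnfrsf11a by 0.76 and Krt5 by 0.71, and the part of these shifts in the changes of the members was not tested. Xist signal was 21.1 on WT 2, 26.9 on KO 6 and 30.0 on KO 8 and 5304 to 6100 on the others. WT 1 and KO 6 stood apart in their 18S rRNA signals, which were 2151 and 2392 where the remaining 8 arrays had 517 to 1162, and in their spike-in signals, which were also the highest.

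Values are the deposited linear signals, which have no detection call here. They are given in the order WT 1 to WT 5 and KO 6 to KO 10, or as the mean ± SD of the 5 arrays of a group, WT first. A gene was tested where its signal exceeded the 40th percentile of the array, 21.6 to 22.1 units, on at least 5 arrays; 51 of the 102 members passed and 51 did not. Changes are KO minus WT on the log2(signal + 16) scale, which understates changes of low signals, tested with limma over all 14087 genes that passed at an adjusted p of 0.05. At that threshold 6 members were lower and 8 higher in KO cells, 14 of 51 or 27.5%, and 37 did not pass. Over all genes tested 29.2% were called, 16.2% lower and 13.0% higher, so the share of called members was near the background and is no result about these families as a whole. The median change was 0.04 for the tested members and -0.03 for all genes. KO and WT signals did not overlap for 11 members, 5 with KO below WT and 6 with KO above, against 22.1% of all genes, 12.0% below and 10.1% above. In RNA of sorted cells in bulk, fewer cells of a type and less RNA per cell cannot be told apart.

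**Figure D1:**
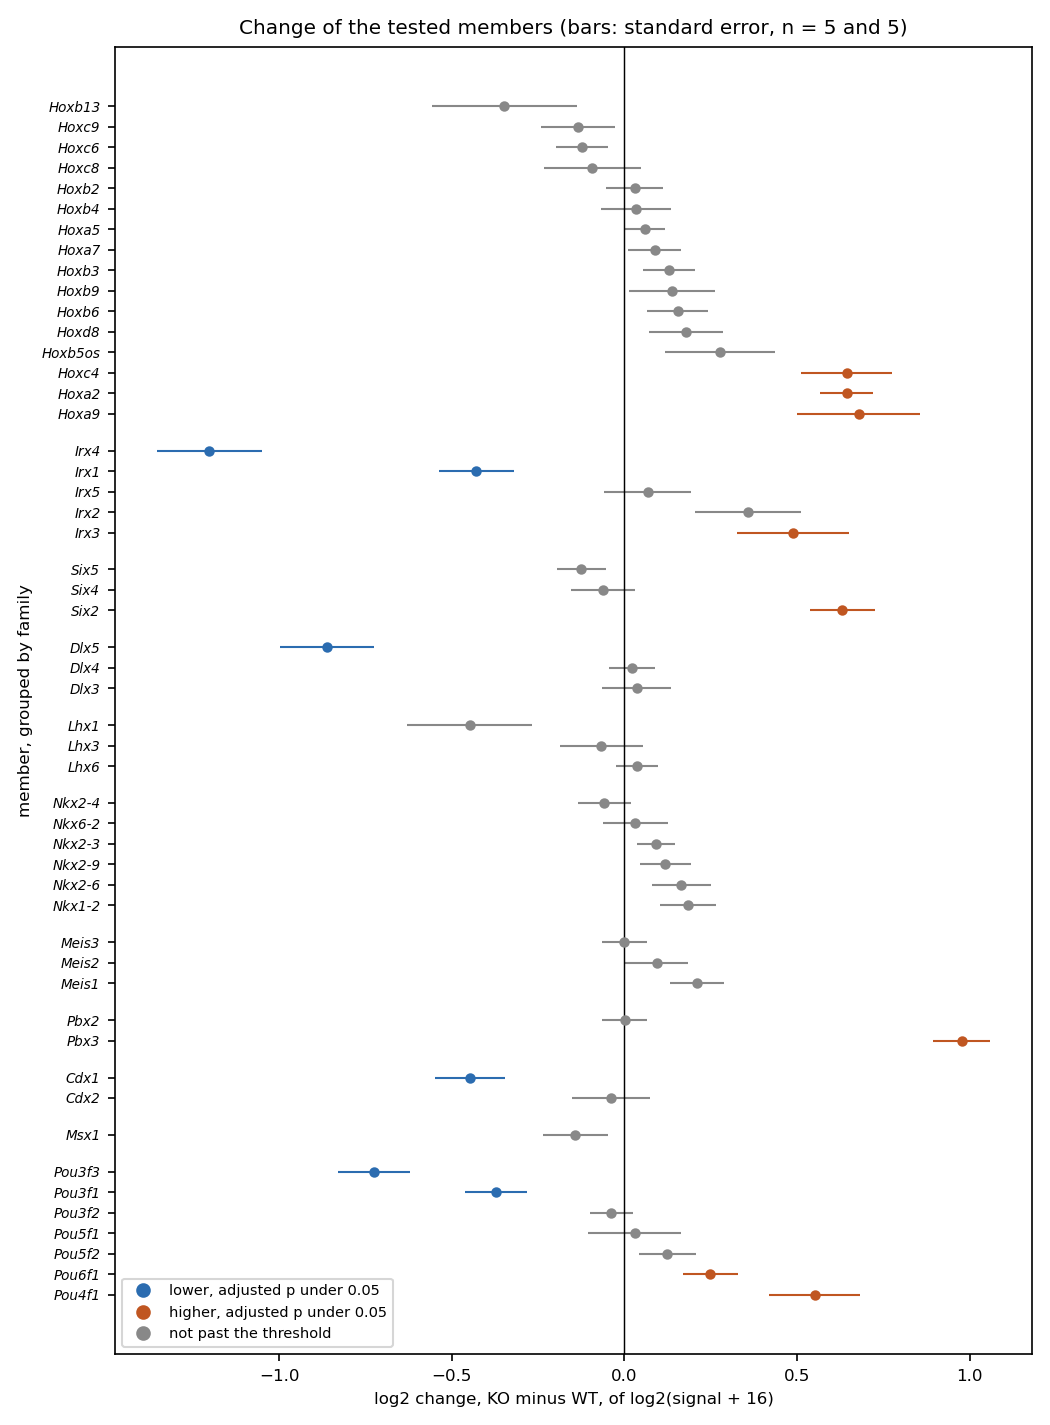
Fitted log2 change (KO minus WT, of log2(signal + 16); x axis) of the 51 tested members, grouped by family on the y axis, with bars for the standard error over 5 and 5 arrays. The changes ran from -1.20 for Irx4 to 0.98 for Pbx3, and 37 members (grey) did not pass the threshold.

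Promoter sequence was matched in RefSeq (GRCm38.p6) for 70 of the 102 members and for 9 of the 14 called ones. The 250 bases before the annotated start are given for members with clear changes on either side, Irx4 (chr13:73260247-73260496, plus strand) and Pou3f3 (chr1:42695518-42695767, plus strand), which fell, and Six2 (chr17:85688255-85688504, minus strand) and Hoxa2 (chr6:52164832-52165081, minus strand), which rose. Capitals mark the letters of recognition motifs of the families themselves, searched on both strands.
Irx4: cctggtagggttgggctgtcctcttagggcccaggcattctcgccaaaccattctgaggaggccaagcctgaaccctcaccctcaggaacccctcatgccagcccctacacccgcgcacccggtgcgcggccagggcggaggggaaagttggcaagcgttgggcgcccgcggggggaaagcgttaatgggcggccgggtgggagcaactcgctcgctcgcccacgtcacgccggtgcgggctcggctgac
Pou3f3: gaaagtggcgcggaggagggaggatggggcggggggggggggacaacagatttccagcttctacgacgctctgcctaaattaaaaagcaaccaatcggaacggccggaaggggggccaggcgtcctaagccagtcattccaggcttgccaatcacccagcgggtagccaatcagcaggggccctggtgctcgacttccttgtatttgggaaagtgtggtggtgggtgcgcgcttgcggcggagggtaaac
Six2: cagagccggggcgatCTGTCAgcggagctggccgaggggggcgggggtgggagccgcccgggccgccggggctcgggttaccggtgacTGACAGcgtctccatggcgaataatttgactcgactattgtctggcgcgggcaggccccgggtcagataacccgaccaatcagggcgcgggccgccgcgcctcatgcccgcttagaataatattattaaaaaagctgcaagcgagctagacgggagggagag
Hoxa2: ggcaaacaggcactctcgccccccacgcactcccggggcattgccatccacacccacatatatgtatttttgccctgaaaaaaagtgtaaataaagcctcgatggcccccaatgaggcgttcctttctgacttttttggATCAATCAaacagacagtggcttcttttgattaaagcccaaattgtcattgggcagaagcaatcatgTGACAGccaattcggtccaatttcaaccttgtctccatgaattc

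The motifs searched were TAATTA for homeodomains, ATGCAAAT (the octamer of POU factors), TGATNNAT for Pbx with Hox, TGACAG for Meis, TTTATG for Cdx and ACANNTGT for Iroquois factors. The Meis letters stand in the window of Six2, beginning 235 bases before the start on the minus strand and 162 bases before it on the plus strand, and in that of Hoxa2, 44 bases before it. The Pbx-Hox letters begin 111 bases before the start of Hoxa2, in reverse orientation. The windows of Irx4 and Pou3f3 held none of these motifs, nor did those of Irx3, Hoxc4 and Hoxa9. Among the called members whose windows are not printed, Pou4f1 held the Meis letters, beginning 108 bases before the start. Pou6f1 held the Cdx letters, beginning 134 bases before it, and both matches are on the minus strand. Of all 32851 RefSeq windows of this length, 15.9% held the Meis letters and 7.68% the Pbx-Hox letters, and of the 70 members with a window 12 and 5 did. The shares were 4.84% of all windows and 2 members for TAATTA, 1.6% and 3 members for the octamer, 10.8% and 6 members for the Cdx letters, and 6.31% and 2 members for the Iroquois letters. A match of letters is a description and no binding was measured.

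Most tested Hox members did not pass the threshold. Of 36 Hox genes 16 were tested; 3 rose, Hoxa2, Hoxa9 and Hoxc4, none fell (none of the others had an unadjusted p under 0.05 in limma), with a median change of 0.11. By cluster, 2 of 4 tested Hoxa genes rose, none of 7 Hoxb genes, 1 of 4 Hoxc genes and not the only tested Hoxd gene, Hoxd8.

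Hoxa2, a patterning factor of the hindbrain and the second pharyngeal arch whose window above holds both Meis and Pbx-Hox letters, had WT signals of 28.9, 34.5, 31.2, 33.2 and 28.9 and KO signals of 49.9, 62.9, 52.7, 57.3 and 68.1. Every KO array stood above every WT array. The mean rose from 31.3 ± 2.52 to 58.2 ± 7.41 (SD, n = 5 each), 1.86-fold, with a log2 change of 0.64 (SE 0.08, adjusted p = 6.62e-05).

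Hoxa9, a factor of the posterior axis and of blood progenitors, measured 51.3, 88.8, 94.7, 76.8 and 94.9 in WT cells and 199.7, 153, 140.2, 113 and 98.4 in KO cells. The groups did not overlap, but the margin was small, since KO 10 was close to WT 5, and WT 1 was the lowest and KO 6 the highest array. The change was 0.68 (SE 0.18, adjusted p = 0.0127). Its weaker probe set, 38.2 ± 6.53 in WT and 48.6 ± 20.9 in KO cells, overlapped between groups with a difference of 0.21. The log2 change of Hoxa9 from the mean of both probe sets was 0.45 and lost the call (adjusted p = 0.0501).

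For Hoxc4, a factor of the cervical and thoracic axis, WT signals were 43.1, 67.9, 67.6, 70.4 and 68.6 and KO signals 139, 106, 111, 104 and 81.5. WT 1 lay well below the other WT arrays and KO 6 above the other KO arrays, and the groups did not overlap. The log2 change was 0.64 (SE 0.13, adjusted p = 0.0032), and 0.54 without WT 1 and 0.56 without KO 6, both called.

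Among the Hox members that did not pass, Hoxb13, a factor of prostate and tail, was 158 ± 20.3 in WT and 128 ± 54.2 in KO cells, with a KO range of 69.5 to 212. Its change was -0.35 (adjusted p = 0.24), and without KO 6 it passed at -0.53 (adjusted p = 0.0247). Hoxb13 also passed with array weights and without WT 1 and KO 6 together. Hoxc9 passed only in fits that left out KO 6, at -0.23 (adjusted p = 0.039) without that array alone, against -0.13 with all arrays. The non-coding Hoxb5os was 132 ± 29.6 and 163 ± 36.3, a change of 0.28 (adjusted p = 0.223). The other 10 had changes from -0.12 for Hoxc6 to 0.18 for Hoxd8.

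Within the KO group the same arrays were often at the ends of the range of Hox members. KO 6 was the highest KO array for 12 of the 16 tested Hox members (75%) and for 27.3% of all genes tested, and KO 10 was the lowest for 10 of 16 (62.5%) and for 21.4% of all genes. The members of a cluster lie side by side and are not independent of each other, and the high 18S rRNA signal of KO 6 stands beside this; its part was not tested.

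**Figure D2:**
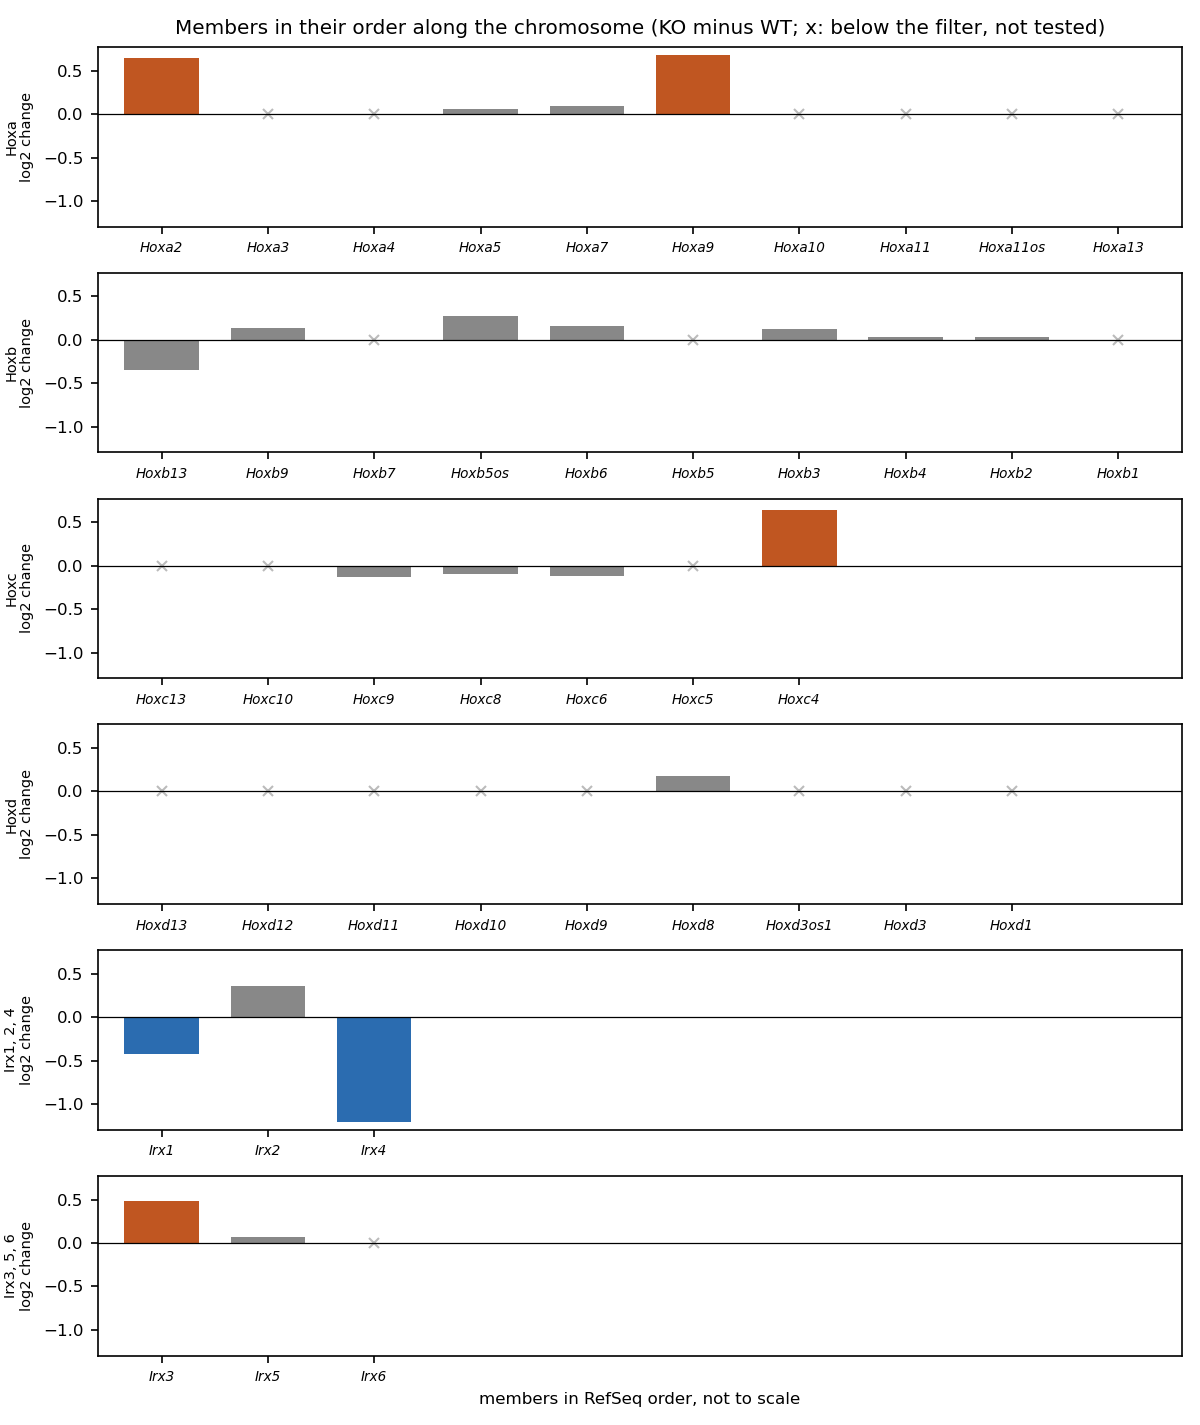
Log2 change (KO minus WT; y axis) of the Hox and Irx members in their RefSeq order along the chromosome (x axis, not to scale), with orange for higher, blue for lower and grey for members not past the threshold; crosses are members below the filter. The called Hox members, Hoxa2, Hoxa9 and Hoxc4, were not next to each other, and Irx2 had a positive change between Irx1 and Irx4, which fell.

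Of the TALE cofactors Pbx and Meis, which lengthen the site that Hox proteins recognise, 5 were tested; Pbx3 rose and the other 4 did not pass. Pbx3 had WT signals of 204, 194, 225, 225 and 206 and KO signals of 491, 416, 478, 399.7 and 375. All KO arrays were well above all WT arrays. It rose 2.05-fold, from 211 ± 13.7 to 432 ± 50.5, with a change of 0.98 (SE 0.08, adjusted p = 5.59e-06). This was the largest rise among the tested members, and leaving out any 1 array kept it between 0.93 and 1.02. Its weaker probe set rose in parallel, from 71.2 ± 2.54 to 135 ± 15.5, also without overlap. Both Pbx3 probe sets carry a suffix of sequence shared among transcripts (_s_at for the tested one, _a_at for the weaker), so the gene has no value when such probe sets are left out.

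Pbx2 was 123 ± 8.91 in WT and 123 ± 3.25 in KO cells (adjusted p = 0.994), with a standard error of 0.06. Meis2 was 639.6 ± 71.5 and 683 ± 71.4, a change of 0.09 (adjusted p = 0.483), and its 4 kept probe sets gave 0.09 to 0.19. Meis1, a partner of Hoxa9 in blood progenitors, had a change of 0.21 that did not pass (adjusted p = 0.0632). Meis1 passed under quantile normalization, median centring and array weights. It also passed with the mean of its probe sets, without those of shared sequence and when Xist signal was a covariate. Leaving out WT 3 or KO 6, or blocking on WT 1 and KO 6, gave a call too. Its lowest adjusted p with 1 array left out was 0.0367. It did not pass with other offsets, without a filter or without WT 1 and KO 6 together. Its weaker kept probe set overlapped between groups and differed by 0.32. Meis3 was at 33.7 ± 1.80 and 33.8 ± 4.18. Of 4 tested TALE genes outside the families above, the repressors Tgif1 and Tgif2 rose, Tgif1 from 268 ± 47.4 to 401 ± 67.5 (change 0.55, adjusted p = 0.00624) and Tgif2 by 0.29 (adjusted p = 0.0313). The call of Tgif2 was lost without WT 1, WT 4, KO 7, KO 9 or KO 10 (adjusted p up to 0.0812).

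Of 6 Iroquois members 5 were tested; Irx4 and Irx1 fell, Irx3 rose and the other two did not pass. Irx4, the factor of the heart ventricle, had WT signals of 50.2, 45.0, 84.2, 63.2 and 35.1 and KO signals of 9.32, 15.9, 14.8, 14.4 and 17.6. No KO array exceeded its 40th percentile while all WT arrays did, so the gene passed the filter through WT arrays alone, and its call is not independent of that filter. Its fall was at least 2.44-fold with that percentile as the floor, with measured means of 55.6 ± 19.0 and 14.4 ± 3.10 and a fitted change of -1.20 (SE 0.15, adjusted p = 0.000116). It was the only member called at 2-fold or more on the fitted scale, 1.96% of those tested against 2.19% of all genes.

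Irx1, a factor of lung and kidney among other organs, had 36.0, 48.4, 48.9, 50.0 and 56.9 in WT and 41.6, 31.1, 29.4, 33.5 and 22.8 in KO cells. The groups overlapped, since WT 1 was lower than KO 6. The change was -0.43 (SE 0.11, adjusted p = 0.0111). Irx2, which lies between Irx1 and Irx4 on chromosome 13 with no protein-coding gene between them, went from 36.2 ± 8.59 to 51.8 ± 17.3, a change of 0.36 that did not pass (adjusted p = 0.102). It was called, and higher, without WT 1 and KO 6, with those arrays as a block and with array weights.

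Irx3, on chromosome 8 in the other Irx cluster, measured 378, 336, 271, 244 and 237 in WT cells and 599, 323, 375, 415 and 388 in KO cells. KO 6 was far above the other KO arrays, and the lower KO arrays lay among the WT values. The change of 0.49 (SE 0.16) passed narrowly (adjusted p = 0.039) and the call was lost in 7 of the 10 fits without 1 array: without WT 3, WT 4, WT 5, KO 6, KO 8, KO 9 or KO 10. These gave 0.36 without KO 6 to 0.52 without KO 8, with adjusted p up to 0.0946. With Xist signal as a covariate the log2 change of Irx3 was 0.43 and also lost its call (adjusted p = 0.0563). Irx5, its neighbour, had a change of 0.07 (adjusted p = 0.728).

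**Figure D3:**
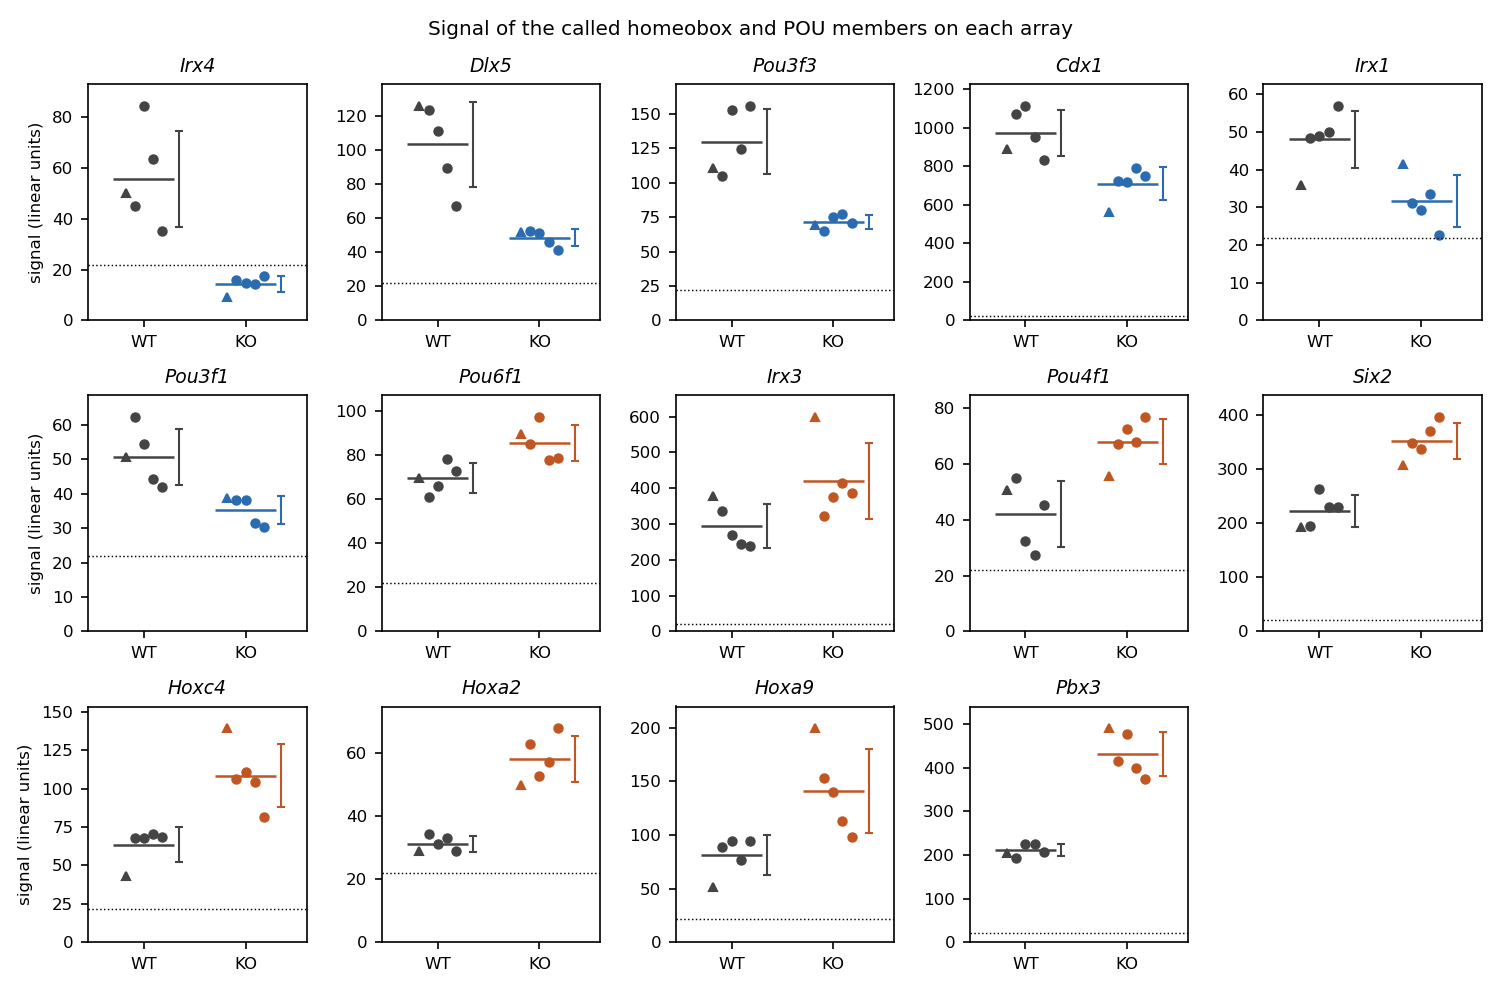
Linear signal (y axis, from 0) of the 14 called members on each WT and KO array (points, 5 per group; triangles are WT 1 and KO 6), with the group mean (line) and SD (bar), and the mean 40th percentile of the arrays as a dotted line. KO points of Irx4 lie under the dotted line, and WT and KO points overlap for Irx1, Irx3 and Pou6f1.

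Among the sine oculis members, Six2, which keeps nephron progenitors undifferentiated, had WT signals of 193, 195, 264, 229.9 and 230.1 and KO signals of 308, 348, 337, 371 and 397. The KO arrays all stood above the WT arrays, and KO 6 was the lowest of them. It rose from 222 ± 29.3 to 352 ± 33.6, 1.58-fold (change 0.63, SE 0.09, adjusted p = 0.00035), and stayed between 0.59 and 0.69 when any 1 array was left out. Six4 was 225 ± 10.6 and 217 ± 34.0 (change -0.06, adjusted p = 0.663), and its 3 kept probe sets gave changes of -0.06 to 0.09. Six5, of lens and muscle, had a change of -0.13 (adjusted p = 0.21).

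Of 5 tested cofactors of sine oculis proteins, 2 rose and 1 fell. The coactivators Eya1 and Eya4 rose, Eya1 from 484 ± 53.2 to 669.9 ± 49.6 (change 0.46, adjusted p = 0.00115) and Eya4 by 0.43 (adjusted p = 0.0112). The corepressor Dach2 fell from 89.5 ± 9.41 to 62.6 ± 6.11 (change -0.42, adjusted p = 0.00222). Eya1 also stands in a list of thymus organogenesis factors, of which 4 of 8 tested genes rose, Pax9 by 1.05, Pax1 by 0.52, Isl1 by 0.59 and Eya1, and none fell with all arrays, though 1 did without WT 1 or without WT 2 (median 0.22). Over all genes tested, 13.0% were higher, and the list was chosen with earlier results of these data known. Of the members in that list Six4 was tested, and Hoxa3, which patterns the third pharyngeal pouch that forms the thymus, was below the filter at 16.3 to 23.8.

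The clearest fall in the Distal-less family was that of Dlx5, a factor of the jaw skeleton and of osteoblasts, with WT signals of 126, 123, 111, 89.1 and 66.9 and KO signals of 51.6, 52.5, 51.4, 46.2 and 41.1. No KO array reached the lowest WT array, and the WT arrays were widely spread. The mean fell 2.12-fold, from 103 ± 24.9 to 48.5 ± 4.83 (change -0.86, SE 0.14, adjusted p = 0.000549). Its single probe set, like the weaker one of Pbx3, carries the suffix _a_at, of sequence shared among transcripts. Its neighbour Dlx6 was below the filter on all arrays, at 9.55 to 11.5. Dlx3, of the epidermis and placenta, was 70.3 ± 7.94 in WT and 72.7 ± 10.7 in KO cells (adjusted p = 0.823), and Dlx4 had a change of 0.02 (adjusted p = 0.837).

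Caudal factors direct the identity of the intestinal epithelium. Cdx1 had WT signals of 892, 1070.3, 1114, 953 and 831 and KO signals of 564, 723, 718, 790.2 and 750.0. The groups did not overlap, and KO 6 was the lowest array. It fell 1.37-fold, from 972 ± 119 to 709 ± 85.8 (change -0.45, SE 0.10, adjusted p = 0.00574), and remained called when any 1 array was left out, with changes between -0.50 and -0.37. Cdx2 was 62.2 ± 12.7 and 59.7 ± 8.37 (change -0.04, adjusted p = 0.833), and its weaker kept probe set differed by 0.11. Cdx4 was below the filter.

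Of 17 tested genes listed here as textbook targets of Cdx factors, 11 were lower, 2 higher and 4 not past the threshold, while 16.2% of all genes were lower. A link between these genes and the fall of Cdx1 was not tested. The list had a median change of -0.72, and it was chosen with earlier results of these data known. Fabp2, an intestinal fatty acid carrier, Mep1a, a brush border protease, the apolipoprotein gene Apoa4 and Vil1, which encodes villin, were among those that fell, with changes of -1.64, -0.99, -1.47 and -1.43 (adjusted p at most 7.95e-06). Cdh17, an intestinal cadherin, and Fut2 rose by 0.41 and 0.28, but Cdh17 was not called without WT 2, WT 5, KO 6 or KO 8 (adjusted p up to 0.0734), and Fut2 was called without WT 1 but in none of the other 9 fits without 1 array. Beside this, the markers of enterocytes and hepatocytes, 5 of which are in the Cdx list, were lower for 12 of 14 genes and higher for Cdh17. Their summed signal was 18130 to 24570 on WT and 10820 to 12260 on KO arrays, none of these markers was below the filter, and their part in the result for Cdx1 was not tested.

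Of 7 tested coactivators of POU and other homeodomain factors, Pcbd1 fell from 744 ± 109.6 to 597 ± 74.0 (change -0.31, adjusted p = 0.0468), and Kat2b, an acetyltransferase, rose by 0.39 (adjusted p = 0.0039); the other 5 did not pass. Pcbd1 lost its call under median centring, without a filter, and without WT 1, WT 2, WT 4, KO 7, KO 8, KO 9 or KO 10 (adjusted p up to 0.105). Kat2b lost its call with the mean of its probe sets and without those of shared sequence.

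POU members were divided. Of 10 genes 7 were tested; Pou3f1 and Pou3f3 fell, Pou4f1 and Pou6f1 rose and 3 did not pass. Pou3f3, a class III factor of forebrain and kidney also called Brn1, had WT signals of 110.5, 105, 153, 125 and 156 and KO signals of 69.1, 65.0, 74.8, 77.6 and 70.4. All KO arrays were lower than all WT arrays and close to each other. The mean fell 1.82-fold, from 129.8 ± 23.6 to 71.4 ± 4.93 (change -0.72, SE 0.11, adjusted p = 0.000299). Its other probe set was under the filter.

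Pou3f1, also called Oct6, a factor of myelinating Schwann cells, measured 50.5, 62.2, 54.5, 44.3 and 42.0 in WT and 38.7, 38.1, 38.3, 31.4 and 30.4 in KO cells. The groups did not overlap, with WT 5 just above KO 6. The change was -0.37 (SE 0.09, adjusted p = 0.00811), while a second kept probe set, of lower signal, overlapped and differed by -0.04. Pou3f2, of the same class, was 23.0 ± 1.94 and 22.0 ± 2.79 (adjusted p = 0.687).

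Pou4f1, also called Brn3a, a factor of sensory neurons, had WT signals of 50.6, 54.9, 32.5, 27.4 and 45.4 and KO signals of 55.8, 67.2, 72.6, 67.9 and 76.9. The lowest KO array, KO 6, was next to the highest WT array, WT 2, and the WT arrays were widely spread. The change was 0.55 (SE 0.13, adjusted p = 0.00766). Pou6f1, a class VI POU factor, had 69.6, 60.8, 65.9, 78.3 and 72.9 in WT and 89.3, 85.1, 97.2, 77.6 and 78.4 in KO cells. These groups overlapped, since WT 4 exceeded KO 9. The change of 0.25 (SE 0.08, adjusted p = 0.0343) lost its call without WT 2, WT 3, KO 6, KO 7 or KO 8 (adjusted p up to 0.0883) and without WT 1 and KO 6 together (adjusted p = 0.0702). The log2 change of Pou6f1 was also not called with Xist signal as a covariate (adjusted p = 0.054).

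Pou5f1, the pluripotency factor Oct4, was 138 ± 23.6 in WT and 142 ± 26.9 in KO cells, a change of 0.03 (SE 0.13, adjusted p = 0.894), and Pou5f2 had one of 0.12 (adjusted p = 0.292). Of 8 tested genes of the pluripotency network around Pou5f1, a list chosen with earlier results of these data known, 6 were lower and 1 higher (median -0.44). Over all genes tested, 16.2% were lower and 13.0% higher. Sox2 was 27.9 ± 3.70 in WT cells and under the 40th percentile on all KO arrays (measured 15.0 ± 1.73), at least 1.27-fold lower with that percentile as the floor; like Irx4 it passed the filter through WT arrays alone, so its call is not independent of the filter. Dppa3 fell from 1166 ± 342 to 570.5 ± 142 and Fgf4 and Dppa5a by 0.64 and 0.49 on the log2 scale (adjusted p at most 0.00423 for these). Klf4, which is also a factor of epidermal differentiation, rose from 2105 ± 313 to 3000.0 ± 732 (adjusted p = 0.0241), with no call without WT 3 or WT 4. Among the lower genes, Tdgf1 lost its call in 8 of the 10 fits without 1 array, and Utf1 in 3. The number of lower genes was 4 without WT 2, WT 3 or KO 8. Pou2f3, the tuft cell factor left out of the members, was 54.6 ± 5.03 and 52.5 ± 4.50.

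No LIM-homeodomain, Nkx, Meis or Msx member passed the threshold in limma, and 3 of the 13 tested (Lhx1, Meis1 and Nkx1-2) had an unadjusted p under 0.05. Lhx1, a factor of the kidney and head organiser, was 54.3 ± 20.8 in WT and 34.0 ± 6.79 in KO cells (change -0.45, adjusted p = 0.0842), its other kept probe set differed by -0.58, and it passed only without WT 1 (adjusted p = 0.0177) among the fits without 1 array. Lhx3, of the pituitary, was 82.7 ± 15.4 and 78.1 ± 12.5 (adjusted p = 0.717). Nkx2-6, of pharyngeal endoderm, was 241 ± 26.1 and 272 ± 22.1 (change 0.17, adjusted p = 0.166). The other 5 tested Nkx members had changes from -0.06 for Nkx2-4 to 0.18 for Nkx1-2, which passed without KO 6 (adjusted p = 0.0102). Msx1, a craniofacial factor, was 52.0 ± 8.33 and 45.5 ± 5.54 (adjusted p = 0.289), with its weaker probe set differing by 0.04. Of 9 tested cofactors of LIM factors 1 rose, Ssbp2, by 0.28 (adjusted p = 0.0462), a call kept without WT 3 or KO 9 but lost without any other single array, and lost without a filter, where 1 other cofactor fell. Of 10 corepressors 1 fell, the Groucho gene Tle4, by 0.26 on the log2 scale (adjusted p = 0.0112); 3 fell without WT 1 and 2 without KO 10.

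**Figure D4:**
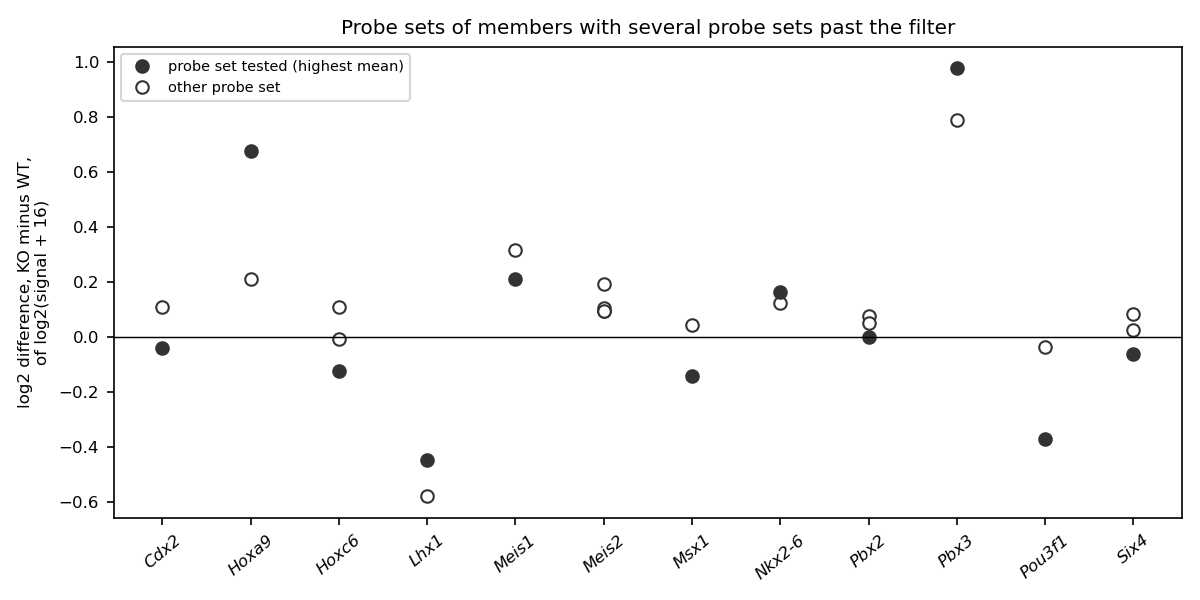
Log2 difference between KO and WT means (y axis) for every probe set past the filter of the 12 members with several such probe sets (x axis); filled points are the probe sets tested. The Pbx3 probe sets stood at 0.79 and 0.98, while those of Hoxa9 and Pou3f1 differed in size from each other, and 8 of the 12 members had all their points on one side of 0.

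Other homeobox genes, listed separately with earlier results of these data known, were called in 12 of 31 cases, 3 lower and 9 higher, with a median of 0.09. Over all genes tested 29.2% were called, 16.2% lower and 13.0% higher. The call of Zhx1, which rose, was lost in 8 of the 10 fits without 1 array. That of Hhex, which fell, was lost in 6 and that of Gbx1, which rose, in 4. Zeb2, a repressor of E-cadherin that was above the 40th percentile on 1 WT and 5 KO arrays, rose from 20.9 ± 5.58 to 47.8 ± 7.96 (change 0.79), Isl2, of motor neurons, from 40.7 ± 5.61 to 74.7 ± 10.1 (change 0.68) and Shox2, of the limb skeleton and the heart's pacemaker, from 48.8 ± 2.75 to 88.3 ± 15.6 (change 0.67). Barx1, of the stomach mesenchyme, fell from 58.9 ± 6.15 to 34.3 ± 3.55 (change -0.57, adjusted p at most 0.000296 for these 4). Of the markers of fibroblasts and mesenchyme, where many homeobox genes are also active, 2 of 9 rose, Dcn and Lum, with a summed signal of 2858 to 3485 on WT and 3224 to 3780 on KO arrays; Twist1 was below the filter. Endothelial markers rose in 5 of 9 cases, with sums of 675 to 1080.0 and 1056 to 1293, and Lyve1 was below the filter. Pecam1 and Emcn, among those that rose, were like Zeb2 above the 40th percentile on 1 WT and 5 KO arrays. The KO arrays alone were enough for these genes to pass, so their calls are not independent of the filter. Markers of cortical thymic epithelium were higher in 3 of 9 cases and lower in 1, with sums of 14520 to 17600 on WT and 20550 to 25340 on KO arrays, none of them below the filter. Ctsl (means 5458 in WT and 9991 in KO cells), Ccl25 (4946 and 7687) and Enpep rose, and Ly75 fell. Psmb11 and Prss16 did not pass (adjusted p = 0.581 and 0.181 in limma), so the higher sums rest largely on Ctsl and Ccl25. Of 12 tested leukocyte markers 3 fell and 2 rose, with sums of 1998 to 2328 and 1297 to 2064; Cd79a and Itgax were below the filter. Of 5 tested B cell markers 2 fell and 1 rose, with sums of 1262 to 2018 and 793 to 1081; Cd79a and Pax5 were below the filter. Fcer2a (means 972 in WT and 344 in KO cells) and Cd79b fell and Ms4a1 rose, so the lower sums rest largely on Fcer2a. The part of these cells in the changes of the members was not tested.

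**Figure D5:**
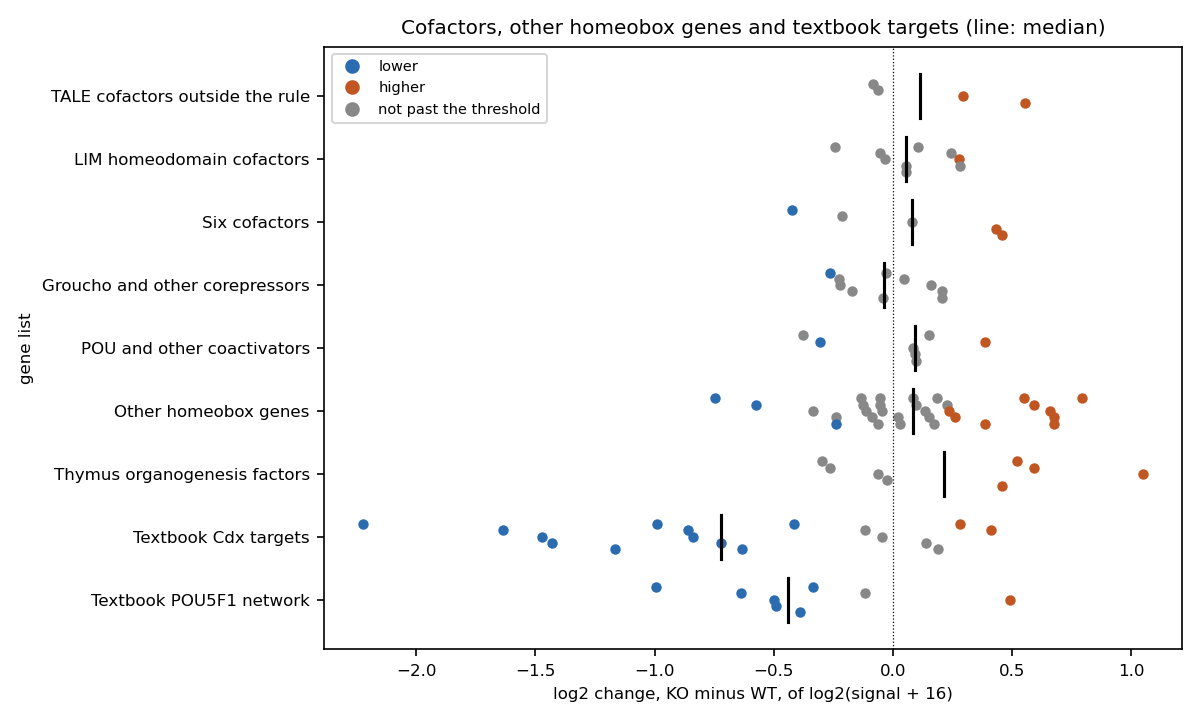
Log2 change (KO minus WT, of log2(signal + 16); x axis) of each tested gene in the lists of cofactors, other homeobox genes, organogenesis factors and textbook targets (y axis), with the list's median as a black line. In the Cdx target list 11 of 17 genes were lower, and in the network around Pou5f1 6 of 8, against 16.2% of all genes tested. The lists were chosen with earlier results of these data known, so these counts are a description. The count for the network around Pou5f1 dropped when some single arrays were left out.

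The 51 members below the filter had signals of 7.50 to 36.6 units on single arrays, and no level or absence can be read from them. In the Hox family they were Hoxa3, Hoxa4, Hoxa10, Hoxa11, Hoxa11os, Hoxa13, Hoxb1, Hoxb5, Hoxb7, Hoxc5, Hoxc10, Hoxc13, Hoxd1, Hoxd3, Hoxd3os1, Hoxd9, Hoxd10, Hoxd11, Hoxd12 and Hoxd13. In the LIM family they were Lhx1os, Lhx2, Lhx4, Lhx5, Lhx8 and Lhx9, and in the Nkx family Nkx2-1, Nkx2-2, Nkx2-5, Nkx3-2, Nkx6-1 and Nkx6-3. The others were Dlx1, Dlx2 and Dlx6; Six3 and Six6; Irx6; Pbx4; Cdx4; Msx2; and the POU genes Pou2f2, Pou3f4 and Pou4f3. All members of 3 families fell here. Pitx1 and Pitx3, of pituitary and hindlimb or lens, had Pitx1 at 14.4 to 22.3. Prox1, the factor of lymphatic endothelium, had signals of 11.8 to 21.2, and Prox2 was below the filter too. Onecut1, of liver and pancreas, was at 14.7 to 21.1, with Onecut2 and Onecut3 below the filter as well.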

How the data were processed

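RNA of 10 samples was hybridised to 1-colour Affymetrix arrays. The authors deposited 1 signal intensity per probe set and array on a linear scale; MAS5 is the only tool in the submitters' processing notes, and its version and scaling are not given in the sources. Of 45101 probe sets, the platform annotation gave 1 symbol for 34958, several for 932 and none for 9211; 34754 were matched by Entrez identifier to RefSeq names (GRCm38.p6). No coordinates are given for probe sets.

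Probe sets above the 40th percentile of their array on at least 5 arrays were kept, with the highest-mean one per gene. limma 3.58.1 in R 4.3.3 (lmFit, eBayes with trend and robust estimation) was fitted to log2(signal + 16) without further normalization, with Benjamini-Hochberg adjustment over all genes. The procedure was tested on simulated data. The precision is limited by the number of arrays.

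Members and lists were chosen with earlier results of these data known. Named were every called member, the member with the highest signal in each family (a choice of names only, since signals of different probe sets are not comparable), and up to 4 called genes per list; others were chosen after their values were seen. Some genes of these families are not reported here. Alternatives were offsets, normalization, filters, probe set choices, eBayes settings, array weights, the threshold, covariates and arrays left out.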

Additional observations from a re-analysis of the deposited data

Results flagged for a closer look

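Among 40 groups of 5 arrays, those of the 20 tested members named by the rule, 2 held an array far from the others, with a gap above 0.71 of the group's range; chance alone gives such an array in about 1 of 20 groups. Hoxc4 was 43.1 on WT 1 against 67.6 to 70.4 on the other WT arrays, and its change was 0.54 without that array against 0.64 with it, called both times. Nkx2-6 was 233 on KO 10 against 278 to 286 on the other KO arrays, and its change was 0.22 (adjusted p = 0.0703) without KO 10.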

How the results depend on the processing

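The count of lower members was 6 and that of higher members 8. With a filter at the 60th percentile 22 members were tested and 8 were called, against 31.8% of all genes in that fit. Of these 8 calls 2 were lower, since 4 of the 6 lower members were no longer tested. At an adjusted p of 0.01 in limma 10 members were called, 5 of them higher, against 17.6% of all genes. The counts were 6 to 8 lower and 6 to 8 higher when 1 array was left out, where 24.3% to 29.9% of all genes were called. Without WT 1 and KO 6 they were 9 and 9, against 31.3% of all genes called. In that fit 13 of the 14 calls were kept and Hoxb13, Hoxc9, Irx2, Lhx1 and Nkx1-2 were added. Without a filter 102 members were tested, 9 lower and 9 higher, against 22.9% called of all genes. Without probe sets of shared sequence Pbx3 and Dlx5 could not be tested. Over the 20 named members and all alternatives there were 471 values, and 443 kept their direction and their side of the threshold. Another 21 kept the direction and lost the call, and 7 changed sign, all of the uncalled Lhx3, Msx1 and Pou5f1. The lost calls were of Hoxa9, Irx1, Irx3 and Pou6f1. Each was lost at an adjusted p threshold of 0.01, where the fit is the same and only the cut is stricter. Irx1 (adjusted p = 0.0111 in limma) lost its call at no other setting where it was tested. The cause of the other losses was not tested. The counts of lower Cdx targets, whose alternatives were chosen after seeing the data, were 10 to 11 when 1 array was left out. No paired fit was made, because the labels give no pairing: the title numbers, 1 to 5 and 6 to 10, are not shared between the groups. From high to low, spike-in signals ranked WT 1, WT 4, WT 5, WT 3 and WT 2, and KO 6, KO 9, KO 10, KO 8 and KO 7. By title number this is the same order in both groups. Whether arrays were handled in pairs is not stated in the labels and was not tested. The low signals of most members limit what can be measured, since 29 of the 51 tested members were lost at the 60th percentile.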

Other observations

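Of the 51 members below the filter, 4 would have been called if all 18194 genes had been tested (limma), against 22.9% called of all genes in that fit. Hoxc10, a factor of the lumbar axis, had WT signals of 24.7, 21.7, 25.8, 30.0 and 36.6 and KO signals of 20.7, 16.3, 15.2, 16.7 and 12.1, a change of -0.44 (adjusted p = 0.00327). Hoxc5, in the same cluster, had a change of -0.25 (adjusted p = 0.026) and Hoxd1 one of -0.23 (adjusted p = 0.00406), while Dlx2 had one of 0.19 (adjusted p = 0.0192). Hoxc10 exceeded the 40th percentile on 4 WT and 0 KO arrays, and Hoxc5 on 2 WT and 0 KO arrays. Dlx2 exceeded it on 0 WT and 1 KO array, and Hoxd1, at 8.29 to 18.2, on 0 WT and 0 KO arrays. The other Hoxc5 probe sets, also below the filter, differed by -0.04 and 0.10. At such low signals no direction for these 4 genes or for the Hoxc cluster is read from that fit.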
